A study of Mus musculus with 6 samples.

Results

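Duox1 and Prdx2 stand at opposite ends of hydrogen peroxide handling, the first as a maker and the second as a remover of the oxidant, and each was measured by 1 linear-transcript probe on a mouse circular RNA (circRNA) microarray. The members were the linear-transcript probes whose transcript accession belongs to either gene, 2 of 44 named linear transcripts on the array, which had 50 such probes among 14330 non-control probes. Both genes were selected on their difference between ischaemia/reperfusion (I/R) and sham on these same arrays. That difference was found in an earlier analysis with another background correction. The values of both genes are thus given below as a description and carry no test. The intervals printed with them take no account of this selection. The tissue was small intestine of 8-week-old C57BL/6 mice after a sham operation (arrays 1, 2 and 3) or after I/R, labelled 4 h (arrays 6, 7 and 9), where the blood supply of the gut is interrupted and then restored. The labels give no separate animal for each array, so the spread between arrays may be partly technical. Linear RNA was to be removed with RNase R, an exonuclease, before labelling with Cy3. The values are thus the signal of probes for linear transcripts in material meant to be depleted of them. They may not follow the level of these transcripts in tissue, and whether each probe reads its named transcript was not tested. The labels also state that the tissue was placed in 4% paraformaldehyde.

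Dual oxidases are membrane enzymes that pass electrons from NADPH to oxygen and release hydrogen peroxide outside the cell. They are activated by calcium and need a maturation partner to reach the surface of epithelia, where the peroxide serves host defence. Peroxiredoxins reduce peroxide inside the cell through a reactive cysteine that is then restored by thioredoxin, and Prdx2 is a cytosolic member that is abundant in red blood cells. Reperfusion of gut is known for a burst of oxidants, which is the setting in which a maker and a remover of peroxide are of interest.

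The sequences of the array probes are not used here. For orientation, the 250 bases before 1 transcript start of each gene are shown from RefSeq (GRCm38.p6). A link between these windows and the signals was not tested. Capitals mark CG dinucleotides. The Duox1 window is chr2:122315422-122315671 and the Prdx2 window is chr8:84969372-84969621, both on the plus strand. The Prdx2 window ends where the annotated gene begins, while the Duox1 window lies inside the annotated span of the gene, before a start that is not its outermost one.
Duox1: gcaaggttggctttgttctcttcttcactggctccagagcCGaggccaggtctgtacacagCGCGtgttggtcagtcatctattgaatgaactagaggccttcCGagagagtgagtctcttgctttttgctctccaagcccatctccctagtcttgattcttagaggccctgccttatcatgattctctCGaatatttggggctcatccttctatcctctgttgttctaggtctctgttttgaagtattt
Prdx2: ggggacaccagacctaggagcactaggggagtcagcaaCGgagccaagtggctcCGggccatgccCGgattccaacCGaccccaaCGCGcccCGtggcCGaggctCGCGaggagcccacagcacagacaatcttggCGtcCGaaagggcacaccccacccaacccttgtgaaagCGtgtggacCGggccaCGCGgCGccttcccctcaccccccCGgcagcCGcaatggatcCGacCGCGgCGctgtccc
The Prdx2 window held 23 CG dinucleotides and 69.2% G or C, and the Duox1 window held 5 and 47.6%. The medians over 32851 such windows were 6 and 52.4%. A Prdx2 count or more was found in 13.3% of all windows and a Duox1 count or more in 55.6%. Short motifs were searched on both strands, and none was found in either window. The antioxidant response core TGACNNNGC was found in 10.2% of all windows and the hypoxia response core ACGTG in 16.6%. The AP-1 site TGANTCA was found in 6.75%. The GC box GGGCGG was found in 32.7% and the TATA box TATAAA in 12.4%. With no match there was no overlap between motifs.

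Before any scaling, both probes were brighter on all I/R arrays than on any sham array. The Duox1 probe (A_51_P475138), for the enzyme that generates hydrogen peroxide, had a mean processed intensity of 8662, 8457 and 5700 on I/R 6, 7 and 9, against 4591, 4814 and 2720 for sham 1, 2 and 3. The group means were 7606 ± 1654 in I/R and 4042 ± 1150 in sham (SD, n = 3 arrays), a ratio of 1.88. Sham 3 was the dimmest and I/R 9 was the dimmest of its group, but the groups did not overlap.

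The Prdx2 probe (A_51_P147207), for the enzyme that removes it, read 2859, 3295 and 1721 on I/R 6, 7 and 9, against 1414, 1671 and 634.7 for sham 1, 2 and 3. The group means were 2625 ± 813 in I/R and 1240 ± 540 in sham (SD, n = 3), a ratio of 2.12. Again sham 3 and I/R 9 were lowest in their groups, and sham 2 lay just under I/R 9. Such separation was common on these arrays: without scaling it held upward for 26.9% of the 9528 tested probes and for 41.7% of the 36 tested linear transcripts. The arrays themselves differed in brightness, with a 75th percentile of intensity of 57.6 to 82.9 in sham and 79.5 to 108 in I/R. Detection was also higher in I/R. There were 9836, 11113 and 9280 circRNA probes well above background on I/R 6, 7 and 9. Sham 1, 2 and 3 had 9006, 5845 and 8015. Within sham, detection ran opposite to the 75th percentile, which was highest on sham 2 and lowest on sham 1. Sham 2 stood apart, with its dimmest signal well above background at 26.9 against 7.61 to 13.6 on the other arrays. The part of brightness and detection in the members' differences was not tested.

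The spots of each probe on 1 array lay close together. Each probe was printed 10 times, in rows 17 to 187 of 192 for Duox1 and in rows 21 to 176 for Prdx2. Every spot of both was well above background, and none was saturated. The scanner software marked 1 Duox1 spot on sham 2, 2 Duox1 spots on I/R 6 and 2 Prdx2 spots on I/R 6 as outliers, which were left out. The coefficient of variation over spots ran from 2.57% to 5.73% for Duox1 and from 5.24% to 7.50% for Prdx2. On the log2 scale the median SD over spots was 0.07 for Duox1 and 0.09 for Prdx2, and the pooled SD between arrays of 1 group was 0.45 and 0.62, which is 6.60 and 6.63 times as large. Spots of 1 array share its RNA and are not replicates, and it is the spread between arrays that sets the error here.

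**Figure D1:**
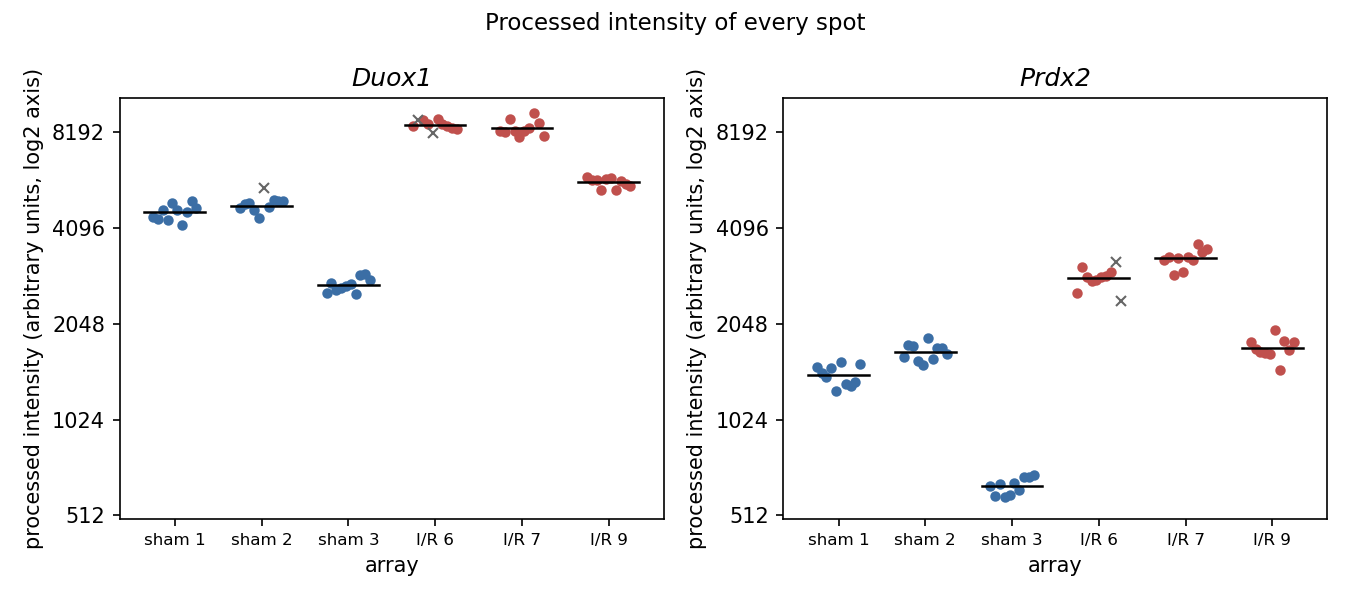
Processed intensity (vertical, log2 axis) of each spot of the Duox1 and Prdx2 probes on each array. Points are spots, crosses are outlier spots left out, and black lines are the means over the spots used. Spots cluster within an array, and sham 3 is the lowest array for both genes, at 2720 for Duox1 and 634.7 for Prdx2.

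With each array scaled to its own 75th percentile the groups overlapped for both genes. Duox1 was at 6.77, 6.29 and 6.06 on I/R 6, 7 and 9, against 6.31, 5.86 and 5.27 for sham 1, 2 and 3, as log2 intensity above that percentile. This gave 6.37 ± 0.36 in I/R and 5.82 ± 0.52 in sham (mean and SD, n = 3), a difference of 0.56 (limma SE 0.35, 95% interval -0.26 to 1.37), or 1.47-fold. Sham 1 lay above I/R 7 and I/R 9, so 7 of the 9 pairs of an I/R and a sham array were higher in I/R.

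Prdx2 was at 5.17, 4.93 and 4.33 on I/R 6, 7 and 9, against 4.61, 4.33 and 3.17 for sham 1, 2 and 3. This gave 4.81 ± 0.43 in I/R and 4.04 ± 0.76 in sham (mean and SD, n = 3), a difference of 0.77 (limma SE 0.43, 95% interval -0.24 to 1.78), or 1.70-fold. I/R 9 lay below sham 1 and at the level of sham 2, and 7 of 9 pairs were higher in I/R. At the level of spots, 17 of 28 I/R spots of Prdx2 and 9 of 28 of Duox1 were above the highest sham spot. For both genes these held all kept spots of I/R 6 and none of I/R 9. From I/R 7 they held most Prdx2 spots but only the brightest Duox1 spot, at 6.45 against 6.43 for the highest sham spot. Spots are not replicates, so the counts restate the array values, and they were not made for other probes.

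The difference was similar over those print positions of a probe that had no outlier spot on any array. Spots of 1 array share its RNA, so this does not bear on the spread between arrays. Over the 7 print positions with all spots kept, the Duox1 difference ran from 0.45 to 0.62. Over 8 such positions the Prdx2 difference ran from 0.67 to 0.85.

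**Figure D2:**
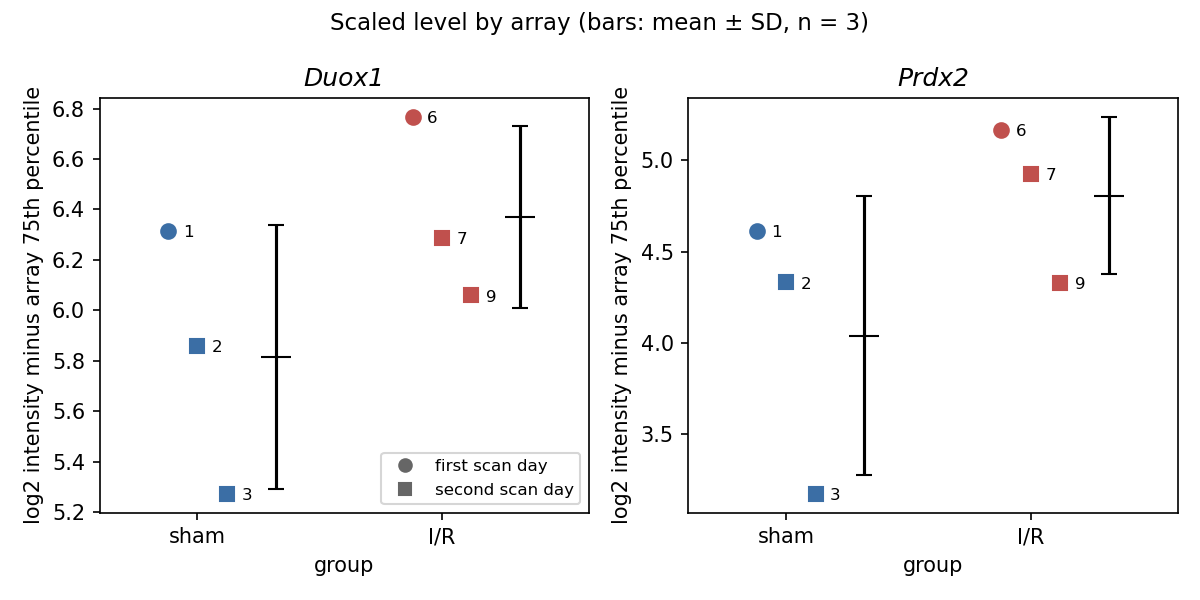
Scaled level of each gene (log2 intensity minus the array's 75th percentile, vertical) in sham and I/R, with the array number beside each point and the scan day as its shape. Bars are means with SD (n = 3), and the groups overlap for both genes, with sham 1 at 6.31 against I/R 9 at 6.06 for Duox1.

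No probe was called on these arrays. Limma, fitted across all tested probes with Benjamini-Hochberg adjustment, called 0 of 9528 (0%), with 806 (8.46%) at an unadjusted p under 0.05. With array weights it called 0, with 1311 at an unadjusted p under 0.05, and with an intensity trend and robust shrinkage 0, with 815. Every I/R array lay above every sham array for 8.83% of all tested probes and 13.9% of the tested linear transcripts after scaling, and Duox1 and Prdx2 were not among these. Among the tested linear transcripts, 29 of 36 (80.6%) were higher in I/R, with a median difference of 0.29. Over all tested probes these were 63.7% and 0.15. A probe was tested if well above background on at least 3 of 6 arrays, and the I/R arrays detected more circRNA probes. Dim probes could thus enter through I/R alone, which bears on these shares and on the ranks that follow. Most linear-transcript probes left out as dim read lower in I/R. Ordered from the most positive difference down, Prdx2 ranked 6 and Duox1 ranked 10 among the 36.

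Array 3 of the sham group set much of the size. Without sham 3 the difference was 0.28 for Duox1 and 0.33 for Prdx2, and without sham 1 it was 0.81 and 1.05. Without I/R 6 the Duox1 difference was 0.36. The file headers give 2 scan days, with sham 1 and I/R 6 on the first and the other 4 on the second. On the first day the difference was 0.45 for Duox1 and 0.55 for Prdx2. On the second day it was 0.61 and 0.87. Each day held as many I/R as sham arrays, so scan day as a block cannot change the differences. Their SE with this block was 0.25 and 0.36.

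Circular RNA probes of similar signal also read higher on the I/R arrays, by less than the 2 members. Within 0.5 log2 of the mean signal of Duox1 there were 175 tested circRNA probes, with a median difference of 0.32 and quartiles of 0.21 and 0.45. After I/R 159 (90.9%) read higher, and 22 (12.6%) differed by at least as much as Duox1. Around Prdx2 there were 267, with a median of 0.31 and quartiles of 0.13 and 0.52. After I/R 227 (85.0%) read higher, and 17 (6.37%) differed by at least as much as Prdx2. The circRNA probes nearest in signal to Duox1, ASCRP4011231 and ASCRP4004256, differed by 0.09 (SE 0.39) and 0.29 (SE 0.32). Those nearest to Prdx2, ASCRP4007573 and ASCRP4006633, differed by 0.18 (SE 0.38) and 0.34 (SE 0.47). Both members lay above the upper quartile of their neighbours. The members were selected on this difference and the neighbours were not, so the excess is no support for a difference.

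**Figure D3:**
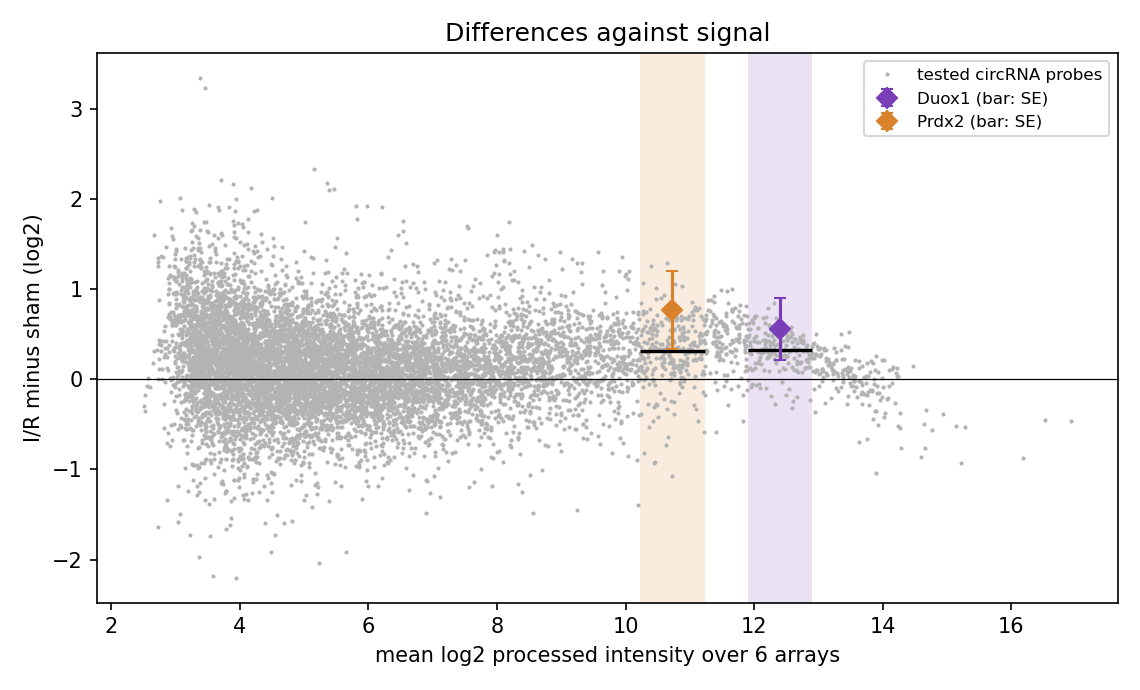
Difference between I/R and sham (log2, vertical) against mean log2 processed intensity (horizontal) for 9492 tested circRNA probes (grey) and the 2 genes (diamonds with SE). Shaded bands span 0.5 either side of each gene and black lines are the medians of the circRNA probes within, at 0.31 around Prdx2 and 0.32 around Duox1.

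The circRNA probes of similar signal followed the same arrays. Around Duox1 their median level was 6.56, 6.16 and 6.03 on I/R 6, 7 and 9, against 6.31, 6.00 and 5.44 for sham 1, 2 and 3. Relative to this median, Duox1 was at 0.21, 0.13 and 0.03 in I/R and at 0.01, -0.14 and -0.17 in sham, or 0.12 ± 0.09 and -0.10 ± 0.10 (mean and SD, n = 3). All I/R arrays were then above all sham arrays, by a gap of 0.02 between I/R 9 and sham 1, which is no more than the largest standard error of a mean over Duox1 spots, 0.03. The same separation held for 5.14% of the 175 neighbours. Duox1 was selected on its difference and the neighbours were not, so its separation is no support for a difference.

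Prdx2, set against its own neighbours in the same way, was at 0.37, 0.42 and -0.01 on I/R 6, 7 and 9, against 0.07, -0.15 and -0.57 for sham 1, 2 and 3. This gave 0.26 ± 0.23 in I/R and -0.21 ± 0.32 in sham (mean and SD, n = 3). I/R 9 lay below sham 1, so the groups overlapped. Of its 267 neighbours, 4.12% had all I/R arrays above all sham arrays on this measure. Sham 3 was the lowest array here too.

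The rank of each gene within an array needs no scaling between arrays. It restates the signals of the arrays on which the genes were selected, so it is no support for a difference. The ranks gave the same separation and overlap. I/R 6, 7 and 9 held 216, 229 and 254 circRNA probes brighter than Duox1, against 256, 291 and 297 for sham 1, 2 and 3. For Prdx2 the counts were 599, 658 and 886 in sham and 532, 527 and 631 in I/R. Duox1 thus ranked higher on each I/R array, by 2 probes at the closest, while Prdx2 on I/R 9 ranked below sham 1. All I/R arrays ranked above all sham arrays for 6.69% of all tested probes, and for 6.86% of the neighbours of Duox1 and 3.37% of those of Prdx2.

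The size of each difference changed with the scaling and with the background step. The Duox1 difference was 0.23 with quantile normalization, 0.37 with the percentile of those probes that all arrays detected, and 0.93 without scaling. For Prdx2 these were 0.51, 0.58 and 1.14. With the median signal of a spot as scanned and the same 75th percentile, Duox1 differed by 0.75 and Prdx2 by 0.92, and with normexp background correction of that median signal by 0.80 and 0.97. The median of the neighbours was 0.02 for both under quantile normalization, which makes the distributions of all arrays equal. The difference of Duox1 minus the median difference of its neighbours was 0.23, and over all alternatives it ran from 0.17 to 0.27. That of Prdx2 was 0.46, with a range of 0.31 to 0.60. A single factor per array shifts a gene and its neighbours alike, so the other percentile and no scaling cannot change this margin. The filter on dim probes, the scan day block and the intensity trend also left it at 0.23 and 0.46. Its sign is no support, since the genes were selected on their difference. The lowest margin of Prdx2 was from the first scan day, and it was 0.32 without sham 3.

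**Figure D4:**
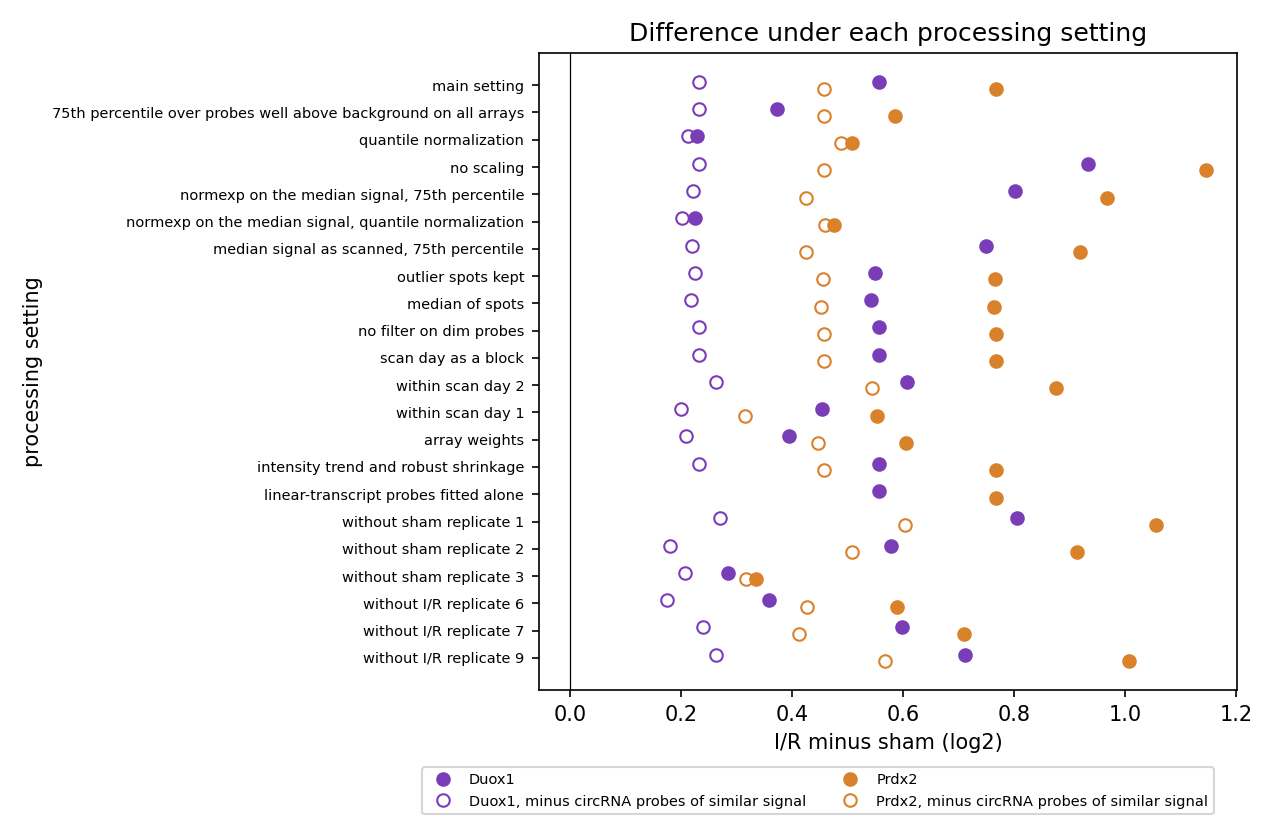
Difference between I/R and sham (log2, horizontal) of Duox1 and Prdx2 under each processing setting (vertical). Filled points are the differences themselves, from 0.22 to 0.93 for Duox1 and 0.33 to 1.14 for Prdx2, and open points are the same minus the median difference of circRNA probes of similar signal.

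The 2 genes moved together, and their ratio differed between groups by less than its spread. The log2 ratio of Duox1 to Prdx2 signal, centred on its mean over the arrays, was -0.07, -0.31 and 0.06 on I/R 6, 7 and 9, against 0.03, -0.14 and 0.43 for sham 1, 2 and 3. The group difference was -0.21, with SDs of 0.29 in sham and 0.19 in I/R. The ratio spanned 0.74 over the arrays, where Duox1 alone spanned 1.49 and Prdx2 alone 1.99.

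Likeness of profile was measured as the root mean square distance between log2 levels over the 6 arrays, each probe centred on its own mean, among named linear transcripts well above background on all arrays. Of 23 such probes the nearest to Duox1 was Lhx1, a LIM homeobox transcription factor known from kidney and neural development, at 0.07. Alkbh4, a dioxygenase, followed at 0.13 and Gamt, which makes creatine, at 0.17, where the median was 0.31. Lhx1 was at 6.88, 6.35 and 6.27 on I/R 6, 7 and 9, against 6.54, 6.09 and 5.54 for sham 1, 2 and 3. Its difference was 0.44, and its arrays ran in the same order as those of Duox1, with I/R 6 highest, sham 1 next and sham 3 lowest.

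The probe nearest to Prdx2 was Duox1, at 0.23, followed by Gamt at 0.24 and Mzb1, a chaperone of antibody-secreting cells, at 0.27, where the median was 0.46. From the side of Duox1, Prdx2 ranked 6 of 23. Likeness of this degree was not rare among circRNA probes: of 5676 well above background on all arrays, 721 were closer to Duox1 than Prdx2 was and 239 were closer to Prdx2 than Duox1 was. All these profiles share the arrays' brightness, and its part in the likeness was not tested. The farthest of the 23 was Actb, at 1.24 from Duox1 and 1.40 from Prdx2, with a difference of -0.66. It was at -2.35, -1.53 and -0.54 on I/R 6, 7 and 9, against -1.61, -0.94 and 0.10 for sham 1, 2 and 3. Actb thus read below both members on every array, while Lhx1 read above Duox1 on every array. Whether these probes read the transcripts they are named for was not tested.

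**Figure D5:**
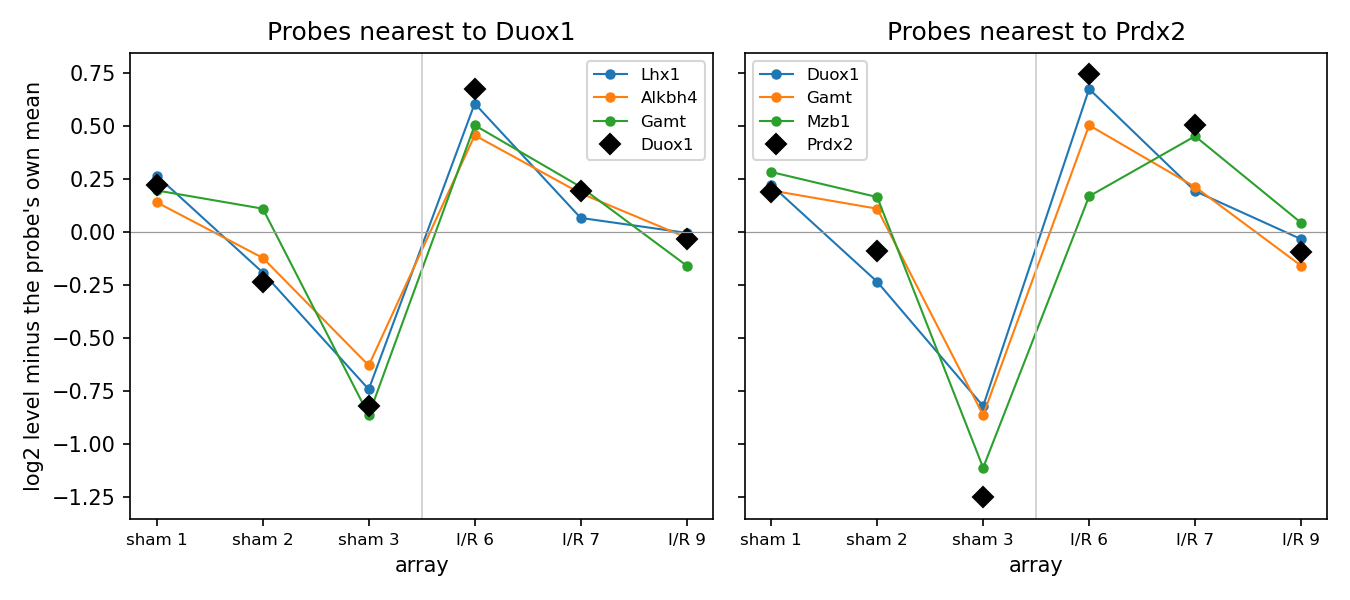
Log2 level of Duox1 (left) and Prdx2 (right, both as black diamonds), minus the gene's own mean over 6 arrays, with the 3 nearest named linear transcripts (coloured, lines join the values of 1 probe). Sham 3 is lowest and I/R 6 is highest for both genes, and the nearest distances are 0.07 for Lhx1 to Duox1 and 0.23 for Duox1 to Prdx2.

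No other gene of the pathway could be set beside these. Of 49 genes listed as peroxide and superoxide makers, removers and thiol partners, Duox1 and Prdx2 were the 2 with a linear-transcript probe, so partners such as the Duox maturation factors, catalase, glutathione peroxidases and thioredoxin were not analysed here. Of 52 marker genes of gut and blood cell types only Chgb, a granule protein of enteroendocrine cells, had a probe. Every array detected it, at -0.84, 0.12 and 0.82 on I/R 6, 7 and 9, against -0.68, 0.34 and 0.67 for sham 1, 2 and 3. Chgb was lowest on the arrays of the first scan day in both groups. No epithelial or red blood cell marker had a probe, so the labelled tissue could not be checked against its defining genes. In bulk tissue, a change in the number of cells of a type and a change in RNA per cell cannot be told apart.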

How the data were processed

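The intensity of each spot was extracted by the authors with Agilent Feature Extraction 11.0.1.1, per the file headers, and is background-subtracted, not normalized between arrays, for a design built on mm9. A table deposited by the authors gives log2 values of 9821 circRNA probes and 0 linear-transcript probes; its normalization is not stated, and its columns share one distribution. Per the submitters' processing notes, Feature Extraction and limma were used. Here outlier spots were left out, log2 intensities were scaled to the 75th percentile of the non-control spots of an array and averaged per probe, and probes well above background on at least 3 of 6 arrays (9492 circRNA and 36 linear) were fitted with limma 3.58.1 in R 4.3.3 (lmFit and eBayes, two-sided, adjusted threshold 0.05). The fit was tested on simulated data. Transcripts were named through RefSeq accessions of GRCm38.p6, which matched 44 of 50. Alternatives covered scaling, background, spots, filter, scan day, value table, variance model, probes fitted, signal window and each array left out. The named genes are both members, pathway genes with a probe, the 3 nearest profiles and the circRNA probes nearest in signal. Actb, the farthest profile, was added after seeing the data. Members and lists were chosen with earlier results of these data known. Precision is limited by the number of arrays.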

Additional observations from a re-analysis of the deposited data

How the results depend on the processing

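The differences ran from 0.22 to 0.93 for Duox1 and from 0.33 to 1.14 for Prdx2 over 21 alternatives. Their sign is no support, since the genes were selected on it, and the filter, the scan day block, the intensity trend and the fit of linear transcripts alone cannot change these values. Leaving out single arrays gave 0.28 to 0.81 and 0.33 to 1.05. The median difference of the circRNA probes of similar signal moved by more than its own SD between arrays (0.37 around Duox1 and 0.36 around Prdx2) in 1 of 23 alternatives each: without scaling it was 0.70 around Duox1 and 0.69 around Prdx2, which follows from the brighter I/R arrays. Limma called 0 probes in 20 of 21 alternatives. It called 1, neither Duox1 nor Prdx2, when the linear transcripts were fitted alone. Fewer probes are then adjusted for, and the shared variance is estimated from these alone. The called probe was dim, well above background on 3 arrays, with a mean of -2.91 in sham and -1.52 in I/R. The planned normexp on the mean signal was not run, because the median signal was used in its place, a change made after seeing the data. No paired analysis was possible because sham (1, 2, 3) and I/R (6, 7, 9) share no replicate number. With 3 arrays per group and an SD of 0.45 to 0.62, the SE of 0.35 and 0.43 limits what could be called.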
